A study of Mus musculus with 9 samples.

Results

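The genes described here are 28 genes of cholesterol synthesis, sterol transport and the control of sterol supply, chosen by symbol from a list, out of 15768 symbols in the expression table. They comprise 7 enzymes from acetyl-CoA to farnesyl diphosphate (the mevalonate steps), 12 enzymes from squalene to cholesterol (the sterol steps), 5 genes of SREBP control and 4 genes of sterol transport. RNA was sequenced from 3 untreated lines of mouse tumour cells, with 3 libraries each. LLC1 is a cell line from a Lewis lung carcinoma, labelled as wild type. SCC1 and SCC2 were each grown from a single LLC1 cell by limiting dilution and passaged 5 to 8 times in the same medium, which held 10% fetal bovine serum, so each subclone is 1 clone, and serum, a source of cholesterol, was present for all lines. Values are FPKM (fragments scaled to gene length and to library depth). Levels of different genes compare only as far as the gene lengths used were right. For Pmvk, Fdft1 and Insig2 the lengths worked back from the FPKM (3399, 8010 and 6881 bases) were far above the annotated exon bases (1713, 4227 and 3473). The reason was not tested. Whether the 3 libraries of each line are separate cultures is not stated in the labels. The p-values therefore measure only the spread between libraries, which may be technical.

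Cells make cholesterol from acetyl-CoA through mevalonate, isoprenoid diphosphates, squalene and lanosterol. The genes of this pathway are switched on together by the SREBP transcription factors, which are made as precursors in the membrane of the endoplasmic reticulum. When membrane sterol is low, Scap escorts the precursors to the Golgi for cleavage. When sterol is high, Insig proteins hold Scap back. Cholesterol that enters cells by endocytosis leaves the lysosome through Npc2 and Npc1.

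Promoters of these genes typically hold a site for SREBP near boxes for the factor NF-Y. RefSeq promoter windows of GRCm38.p6 were matched by symbol for 23 of the 28 genes; Fdps, Fdft1, Sqle, Stard4 and Npc1 had none. In the 250 bases before the start, the letters CCAAT were found on either strand for 20 of the 23 genes (87%), against 41.5% of the 8522 tested genes with a window and 37.5% of all 27025 genes with one. GGGCGG, the GC box, was found for 22 of 23 (95.7%), against 66.9% of tested and 35.4% of all genes. TCACNCCAC, a form of the SREBP site, was found for 1 of 23, Hmgcs1, against 1.17% of tested and 1.22% of all genes. Neighbouring matches of different motifs can share end letters, and a match describes the letters, not a bound site. CCAAT and GGGCGG were searched after the result for TCACNCCAC was known. CCAAT was not found for Acat2, Scap and Abca1, whose windows are not printed. The windows below were chosen by hand, and all hold CCAAT. They belong to Hmgcs1 and Mvd of the mevalonate steps, Lss and Ebp of the sterol steps, and Insig1 and Srebf2 of SREBP control. Each is read 5′ to 3′ on the strand of its gene, with CCAAT (or ATTGG, its other strand) and TCACNCCAC in capitals, and bases after the earliest GENCODE start are left out.
Hmgcs1 (chr13:119690101-119690350, plus strand): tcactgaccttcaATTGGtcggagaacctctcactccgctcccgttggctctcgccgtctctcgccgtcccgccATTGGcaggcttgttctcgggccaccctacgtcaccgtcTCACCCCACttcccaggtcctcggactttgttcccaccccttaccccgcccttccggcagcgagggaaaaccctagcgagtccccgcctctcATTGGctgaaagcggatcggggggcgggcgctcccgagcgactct
Mvd (chr8:122443423-122443672, minus strand): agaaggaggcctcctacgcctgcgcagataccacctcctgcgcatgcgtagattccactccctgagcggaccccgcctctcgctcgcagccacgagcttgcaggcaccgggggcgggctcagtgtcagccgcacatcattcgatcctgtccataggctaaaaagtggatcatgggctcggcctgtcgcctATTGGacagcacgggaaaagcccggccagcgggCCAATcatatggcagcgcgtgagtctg
Lss (chr10:76531355-76531587, plus strand): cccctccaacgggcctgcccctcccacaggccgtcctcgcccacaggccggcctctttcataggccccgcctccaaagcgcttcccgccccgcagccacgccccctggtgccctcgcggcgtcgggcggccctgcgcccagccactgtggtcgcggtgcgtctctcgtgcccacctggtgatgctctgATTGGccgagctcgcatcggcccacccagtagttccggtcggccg
Ebp (chrX:8193513-8193762, minus strand): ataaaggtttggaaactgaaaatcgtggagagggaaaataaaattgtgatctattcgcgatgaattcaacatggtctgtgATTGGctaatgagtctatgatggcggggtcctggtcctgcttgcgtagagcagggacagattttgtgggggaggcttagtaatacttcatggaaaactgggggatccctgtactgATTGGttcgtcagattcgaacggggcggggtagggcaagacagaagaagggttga
Insig1 (chr5:28071162-28071362, plus strand): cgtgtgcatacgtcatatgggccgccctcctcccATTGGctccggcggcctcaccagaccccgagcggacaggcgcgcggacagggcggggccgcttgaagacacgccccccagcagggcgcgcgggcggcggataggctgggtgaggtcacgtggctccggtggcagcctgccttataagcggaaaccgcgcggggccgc
Srebf2 (chr15:82147019-82147180, plus strand): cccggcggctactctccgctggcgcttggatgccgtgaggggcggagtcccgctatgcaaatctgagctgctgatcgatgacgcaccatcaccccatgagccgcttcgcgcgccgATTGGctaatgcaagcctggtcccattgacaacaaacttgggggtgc
The printed stretches hold 3 CCAAT boxes for Hmgcs1, 2 each for Mvd and Ebp, and 1 each for Lss, Insig1 and Srebf2.

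In SCC1 most of these genes had lower transcript levels than in LLC1, and in SCC2 nearly all did. Of the 27 genes that passed the filter (1 FPKM in at least 3 libraries), 17 were lower in SCC1 and 5 higher (limma on log2(FPKM + 1), adjusted p under 0.05). Their median log2 change was -0.18, against 0.033 over all 10519 tested genes. In the same comparison 30.9% of all tested genes were lower and 39.2% higher, so the members' share of lower genes, 63%, was above the background and their share of higher genes, 18.5%, below it. Against LLC1, SCC2 had 23 lower and 2 higher members and a median of -0.26 against 0.0075 over all tested genes. The background there was 32.9% lower and 34.7% higher, against 85.2% and 7.41% of the members. Abca1, the sterol exporter, was the 1 member that did not pass the filter. The comparisons of SCC1 and SCC2 with LLC1 share the LLC1 libraries. Changes were modest: 0 of 27 members reached 2-fold on this scale in SCC1, SCC2, or SCC2 against SCC1, where 1.91%, 1.58% and 3.35% of all tested genes did.

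**Figure D1:**
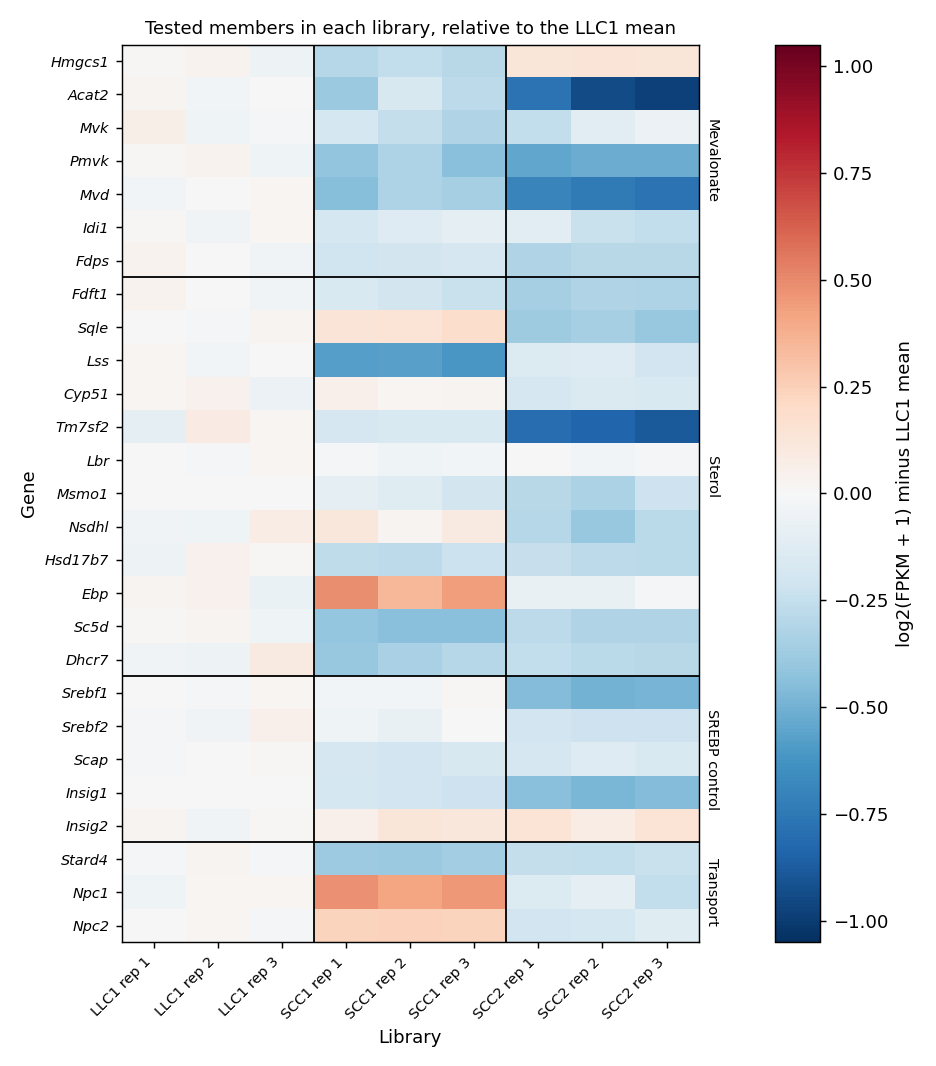
Heat map of the 27 tested members (rows, ordered by step of the pathway) in the 9 libraries (columns), coloured by log2(FPKM + 1) minus the LLC1 mean of the gene. The 3 libraries of each line have like colours, Acat2, Mvd and Tm7sf2 are the darkest blue in SCC2, and Ebp and Npc1 are red in SCC1.

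Libraries held 17094808 to 19398657 fragments each, worked back from the FPKM values. Abca1 held few fragments, and of the tested members Tm7sf2 held the fewest, 148 to 310 per library. Of the defining markers of other cells, the leukocyte gene Csf1r and the endothelial genes Pecam1, Cdh5 and Kdr had means under 0.02 FPKM in each line, and 4 measured markers of lung epithelium summed to 0.356 to 1.22 FPKM per library, with the lung factor Nkx2-1 at most at 0.0153. The epithelial keratin Krt18 had means of 223 FPKM in LLC1, 295 in SCC1 and 157 in SCC2, while the epithelial cadherin Cdh1 was under 0.01 FPKM in all 3 lines. The summed level of 5 measured macrophage and leukocyte markers ran from 15.6 to 17.1 FPKM in LLC1, 26.2 to 29.9 in SCC1 and 18.6 to 19.1 in SCC2, nearly all of it Cd14 and Cd68. Both were higher in SCC1 (log2 changes 0.58 and 0.99), and in SCC2 Cd14 was higher and Cd68 lower (0.36 and -0.33). The summed level of 6 fibroblast markers, nearly all of it Col3a1, ran from 573 to 598 FPKM in LLC1, 258 to 268 in SCC1 and 692 to 714 in SCC2. The other fibroblast markers that were tested, Dcn, Pdgfra and Acta2, were lower in SCC2 than in LLC1 (-0.37, -0.61 and -0.32). The part of these differences in the sterol results was not tested. In bulk RNA, fewer cells that express a gene and less RNA per cell cannot be told apart.

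The mevalonate steps were lower in SCC1 throughout: 7 of 7 enzymes passed the test as lower, with a median log2 change of -0.28. In SCC2 6 of 7 were lower and 1, Hmgcs1, was higher. Among all tested genes 30.9% were lower and 39.2% higher in SCC1, and 32.9% and 34.7% in SCC2. Mvd, the decarboxylase that makes isopentenyl diphosphate, had 32.4, 33.2 and 33.6 FPKM in the LLC1 libraries, 23.95, 26.2 and 25.8 in SCC1 and 20.1, 19.3 and 18.9 in SCC2. The 3 lines did not overlap, with SCC2 lowest. Mvd fell by 0.37 on the log2 scale in SCC1 (SE 0.0354, limma adjusted p = 2.08e-06) and by 0.74 in SCC2 (adjusted p = 8.06e-09), and SCC2 was below SCC1 (-0.36, adjusted p = 1.64e-06).

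Acat2, the cytosolic thiolase that joins acetyl-CoA units at the entry of the pathway, had the largest log2 change of the 27 tested members on this scale. Its FPKM values were 40.3, 38.7 and 39.6 in LLC1, 30.0, 35.1 and 32.5 in SCC1 and 22.7, 20.2 and 19.6 in SCC2. The lines again formed 3 separate levels, and the SCC2 mean was 47.4% below that of LLC1 (log2 change -0.90, SE 0.0581, limma adjusted p = 9.94e-08). Acat3, a paralogue also listed in the table, ran from 0.796 to 5.34 FPKM over all libraries, and whether reads were split between these copies was not tested. Pmvk, the phosphomevalonate kinase, had 12.1, 12.3 and 11.6 FPKM in LLC1, 8.77, 9.40 and 8.602 in SCC1 and 7.88, 8.08 and 8.04 in SCC2. It was lower in both subclones, without overlap (log2 changes -0.39 and -0.53, limma adjusted p = 2.49e-06 and 2.23e-07).

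Hmgcs1, the HMG-CoA synthase, went in opposite directions in the subclones. Its FPKM values were 51.2, 52.0 and 48.8 in LLC1, 40.9, 42.3 and 41.1 in SCC1 and 55.5, 55.8 and 55.4 in SCC2. SCC1 lay below LLC1 and SCC2 above it, with no overlap between lines. The log2 change was -0.28 in SCC1 (SE 0.0253, limma adjusted p = 1.28e-06) and 0.13 in SCC2 (adjusted p = 6.59e-04), and SCC2 was above SCC1 by 0.41 (adjusted p = 2.71e-08). The rise in SCC2 depended on how chromosome medians were treated, as described further on.

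Fdps, the farnesyl diphosphate synthase, was the most abundant enzyme of the pathway per length, at 146 ± 3.48 FPKM in LLC1 (SD, n = 3), 127 ± 1.46 in SCC1 and 118 ± 0.985 in SCC2. It was lower in both subclones (log2 changes -0.19 and -0.30, limma adjusted p = 4.59e-06 and 1.29e-07). A gene model on the same strand, Gm43738, covers 26.7% of its annotated exon bases and was not measured here. The isomerase Idi1, at 16.2 ± 0.346 FPKM in LLC1, was lower by smaller amounts (-0.14 in SCC1, limma adjusted p = 0.0108, and -0.20 in SCC2, adjusted p = 8.16e-04). For mevalonate kinase, Mvk, the values were 19.7, 18.2 and 18.6 FPKM in LLC1, 16.5, 15.7 and 14.9 in SCC1 and 15.6, 17.4 and 18.02 in SCC2. Mvk was clearly apart from LLC1 in SCC1 (-0.25, limma adjusted p = 0.00112). Its fall in SCC2 (-0.14, adjusted p = 0.0314) did not pass without LLC1 replicate 1 (adjusted p = 0.116) or without SCC2 replicate 1 (0.137), nor with no filter on low values (0.0658) or with a replicate block (0.053).

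Most enzymes of the sterol steps were lower in each subclone, with exceptions in SCC1. Of 12 enzymes, 7 were lower and 2 higher in SCC1 (median log2 change -0.15), while 10 were lower and 0 higher in SCC2 (median -0.28). The shares over all tested genes were 30.9% lower and 39.2% higher in SCC1, and 32.9% and 34.7% in SCC2. Lss, the lanosterol synthase that closes the sterol rings, had 16.3, 15.8 and 16.2 FPKM in LLC1, 10.5, 10.5 and 10.2 in SCC1 and 14.4, 14.6 and 13.9 in SCC2. SCC1 was thus the lowest line for Lss, 35.5% below the LLC1 mean (log2 change -0.59, SE 0.0304, limma adjusted p = 1.26e-08), and SCC2 lay between SCC1 and LLC1 (0.43 above SCC1, adjusted p = 1.06e-07).

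Sqle, the squalene epoxidase that commits squalene to sterols, had 101, 99.7 and 103 FPKM in LLC1, 112, 112 and 115 in SCC1 and 78.0, 79.4 and 76.7 in SCC2. SCC1 was above and SCC2 below LLC1, and the subclones differed by -0.53 (SCC2 minus SCC1, SE 0.0211, limma adjusted p = 7.65e-10). Ebp, the isomerase of the sterol double bond, had 12, 12.2 and 11.2 FPKM in LLC1, 16.9, 15.3 and 16.3 in SCC1 and 11.1, 11.1 and 11.6 in SCC2. Ebp was higher in SCC1 (log2 change 0.43, limma adjusted p = 2.67e-06), and in SCC2 its libraries overlapped those of LLC1 (-0.058, adjusted p = 0.232).

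After Cyp51 removes a methyl group from lanosterol, either of 2 reductases, Tm7sf2 or Lbr, can act. Lbr, which is also the lamin B receptor of the inner nuclear membrane, was the more abundant and had 62.9 ± 0.946 FPKM in LLC1, 61.5 ± 0.536 in SCC1 and 62.3 ± 0.509 in SCC2 (SD, n = 3 each). Its comparisons did not pass the test (limma adjusted p = 0.154, 0.541 and 0.396). Lbr did pass as lower than LLC1 with quantile normalization (-0.066 in SCC1 and -0.054 in SCC2, adjusted p = 0.00763 and 0.0228), and in SCC1 with median-of-ratios scaling (adjusted p = 0.0405). Tm7sf2 had 9.98, 11.5 and 11.0 FPKM in LLC1, 9.44, 9.59 and 9.54 in SCC1 and 5.79, 5.61 and 5.42 in SCC2. Its level in SCC2 was 48.2% below that of LLC1 (log2 change -0.84, SE 0.0458, limma adjusted p = 2.44e-08) and below that of SCC1 (-0.67, adjusted p = 7.25e-08). Together the pair gave 72.7 to 74.8 FPKM in LLC1, 70.5 to 71.4 in SCC1 and 67.3 to 68.5 in SCC2, and the ratio of Tm7sf2 to Lbr ran from 0.159 to 0.186, 0.152 to 0.157 and 0.0869 to 0.0924. Exons of Vps51 on the same strand cover 12.1% of the annotated exon bases of Tm7sf2, and Vps51 was lower in SCC1 (17.8 ± 0.361 FPKM) than in LLC1 (21.7 ± 0.473) and SCC2 (22.6 ± 0.793).

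Cyp51 itself and Nsdhl, the sterol dehydrogenase of the demethylation complex, were lower in SCC2 (log2 changes -0.16 and -0.33, limma adjusted p = 2.86e-04 and 2.00e-05) and overlapped LLC1 in SCC1. Cyp51 had 37.2 ± 1.44, 38.1 ± 0.384 and 33.1 ± 0.251 FPKM in LLC1, SCC1 and SCC2, and Nsdhl 39.2 ± 1.88, 41.5 ± 1.36 and 31.1 ± 1.38. The change of Nsdhl in SCC1 (0.081, limma adjusted p = 0.0915) passed the test as a rise without LLC1 replicate 3 (adjusted p = 0.0185) or without SCC1 replicate 2 (0.0499). It also passed as a rise with a replicate block (limma adjusted p = 0.0294) and with limma-voom (adjusted p = 0.023). With chromosome medians removed it went to -0.084 (limma adjusted p = 0.0905). Msmo1, the monooxygenase of the same complex, had 65.0 ± 0.259, 58.8 ± 1.99 and 53.4 ± 2.27 FPKM, and its keto reductase Hsd17b7 5.54 ± 0.236, 4.48 ± 0.115 and 4.44 ± 0.0855. Both were lower in each subclone, and Hsd17b7 did not differ detectably between the subclones (-0.0092, limma adjusted p = 0.842).

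Sc5d, the sterol desaturase late in the pathway, had 33.1, 33.4 and 31.7 FPKM in LLC1, 24.4, 23.9 and 23.9 in SCC1 and 26.8, 26.1 and 26.1 in SCC2. It fell in both subclones, and SCC1 was the lower of them (SCC2 minus SCC1 0.13, limma adjusted p = 0.001). Dhcr7, which carries out the final reduction to cholesterol in one arm of the pathway, had 14.8 ± 0.923 FPKM in LLC1, 11.5 ± 0.395 in SCC1 and 12.0 ± 0.148 in SCC2. It was lower in SCC1 and in SCC2 (log2 changes -0.35 and -0.28, limma adjusted p = 1.62e-05 and 9.66e-05). Fdft1, the squalene synthase at the head of these steps, had 15.4 ± 0.431, 13.4 ± 0.371 and 12.1 ± 0.156 FPKM and was also lower in both (-0.19 and -0.33). Exons of Ctsb on the opposite strand cover 18.3% of its annotated exon bases, and Ctsb stood near 400 FPKM (399 ± 1.34 in SCC2 to 470 ± 9.57 in SCC1), so without knowing whether counting used the strand the level of Fdft1 is uncertain.

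**Figure D2:**
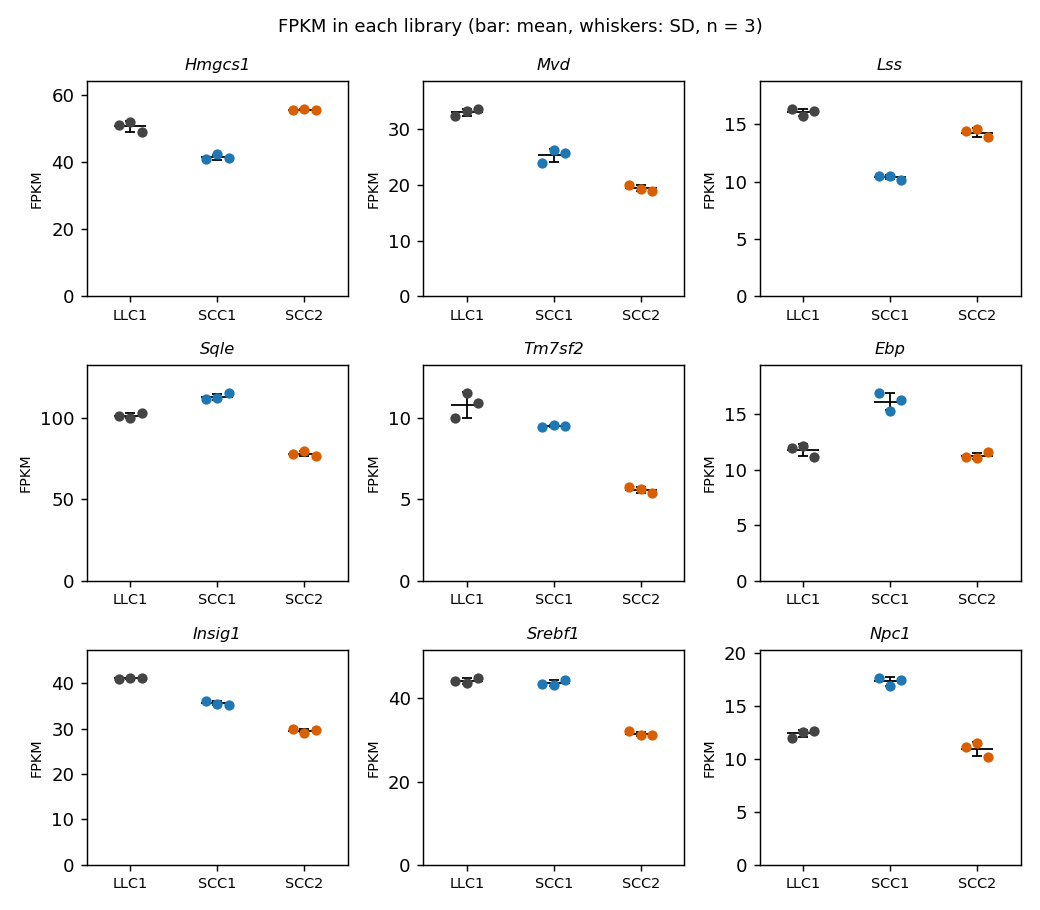
FPKM (y axes, from 0) of 9 members in each library of LLC1, SCC1 and SCC2, with points for libraries, bars for means and whiskers for the SD (n = 3). Mvd and Insig1 step down from LLC1 to SCC1 to SCC2, Lss is lowest in SCC1, Srebf1 and Tm7sf2 are lowest in SCC2, and Sqle, Ebp and Npc1 are highest in SCC1.

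Averaged over the 19 synthesis enzymes, log2(FPKM + 1) relative to the LLC1 mean was -0.181, -0.171 and -0.178 in the SCC1 libraries and -0.309, -0.326 and -0.324 in the SCC2 libraries, while LLC1 libraries stayed between -0.003 and 0.002. Each library of SCC1 had 15 enzymes below the lowest LLC1 library and 2 to 4 above the highest. Those of SCC2 had 16 to 18 below and 1 above. The shares of all tested genes in these positions were not computed. This is a description of the listed enzymes, with no test of the average.

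Of the 5 genes of SREBP control, 2 were lower and 1 higher in SCC1, near the background of 30.9% lower and 39.2% higher. In SCC2 4 were lower and 1 higher, against 32.9% and 34.7% of all tested genes. With chromosome medians removed, 3 were lower and 0 higher in SCC1, and 2 lower and 0 higher in SCC2. The background under that setting was 30.6% lower and 29.9% higher in SCC1, and 29.6% and 28.8% in SCC2. Both transcription factors were lower in SCC2, and neither passed the test in SCC1. Srebf1, whose product favours fatty acid genes, had 44.1, 43.6 and 44.98 FPKM in LLC1, 43.4, 43.3 and 44.5 in SCC1 and 32.1, 31.2 and 31.2 in SCC2. The SCC2 libraries lay well below the other 6 (log2 change against LLC1 -0.48, SE 0.0229, limma adjusted p = 8.05e-09, and -0.46 against SCC1, adjusted p = 4.47e-09), and SCC1 overlapped LLC1 (-0.016, adjusted p = 0.554). Srebf2, whose product favours cholesterol genes, was the more abundant per length, with 94.5, 92.8 and 99.2 FPKM in LLC1, 92.6, 90.5 and 95.6 in SCC1 and 82.9, 82.0 and 82.0 in SCC2. It fell by 0.21 in SCC2 (limma adjusted p = 2.47e-05), and in SCC1 the change was -0.040 (adjusted p = 0.203), which passed with quantile normalization (-0.084, adjusted p = 0.0124).

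Insig1, the retention protein that is itself a target of SREBP, stepped down over the lines, with 40.9, 41.1 and 41.2 FPKM in LLC1, 36.1, 35.5 and 35.3 in SCC1 and 30.0, 29.2 and 29.6 in SCC2. The 3 lines did not overlap, and log2 changes were -0.20 in SCC1 (limma adjusted p = 5.42e-06), -0.46 in SCC2 (adjusted p = 6.24e-09) and -0.26 for SCC2 against SCC1 (adjusted p = 3.65e-07). Its relative Insig2 had 8.56, 8.18 and 8.45 FPKM in LLC1, 8.74, 9.28 and 9.19 in SCC1 and 9.35, 8.92 and 9.37 in SCC2. The rises of Insig2 were small (0.099 and 0.12, limma adjusted p = 0.0257 and 0.0101), and that in SCC1 did not pass without LLC1 replicate 2, SCC1 replicate 2 or SCC1 replicate 3 (adjusted p = 0.0882, 0.0877 and 0.073), nor with median-of-ratios scaling (0.0553). Neither rise passed with chromosome medians removed (0.038 and -0.017, limma adjusted p = 0.38 and 0.695). The ratio of Insig1 to Insig2 ran from 4.78 to 5.03 in LLC1, 3.83 to 4.13 in SCC1 and 3.16 to 3.27 in SCC2. The size of this ratio rests on the gene lengths used, and that of Insig2 is uncertain. Scap, the escort, had 38.4 ± 0.384 FPKM in LLC1, 33.6 ± 0.422 in SCC1 and 34.3 ± 0.48 in SCC2, lower in both subclones (-0.18 and -0.16, limma adjusted p = 1.45e-05 and 5.68e-05).

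**Figure D3:**
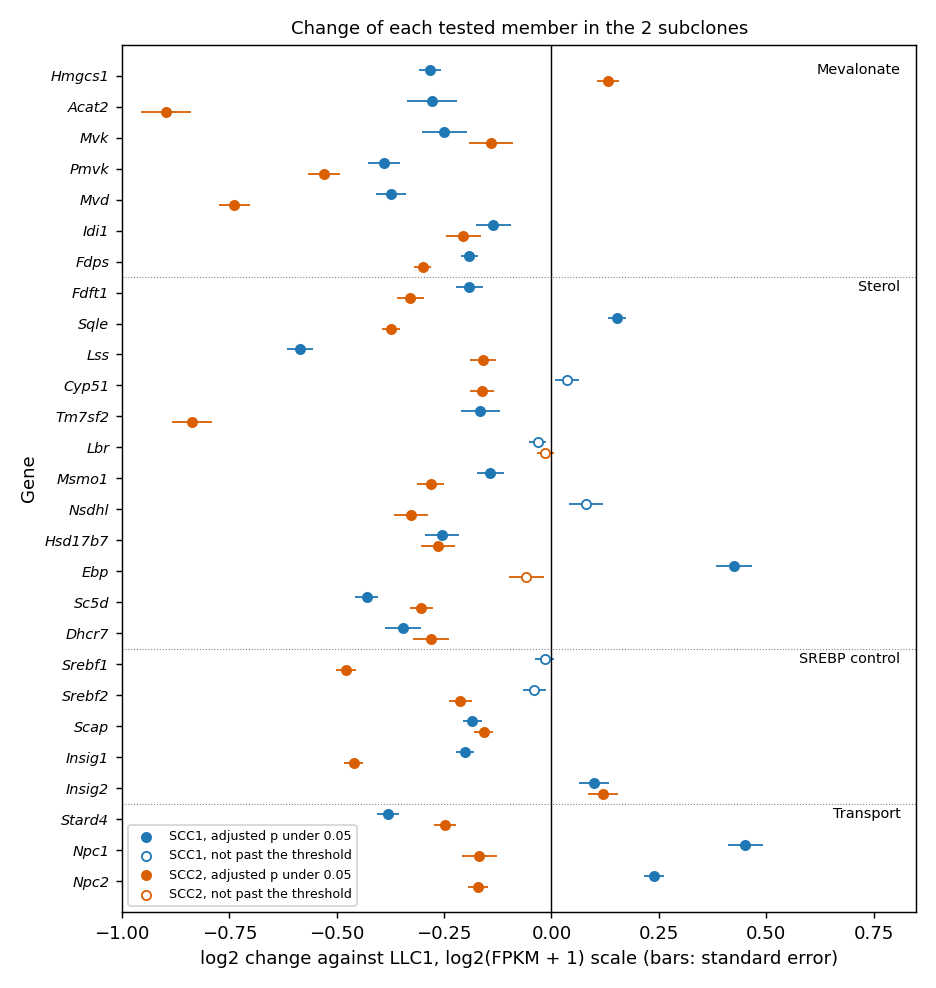
Log2 change against LLC1 (x axis, log2(FPKM + 1) scale, bars are standard errors) of the 27 tested members in SCC1 (blue) and SCC2 (orange), with filled points past an adjusted p of 0.05. Most points lie left of 0, Acat2, Tm7sf2 and Mvd lie farthest left in SCC2, and Sqle, Ebp, Npc1 and Npc2 lie right of 0 in SCC1.

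Of the 3 tested transport genes, 2 were higher and 1 lower in SCC1, and all 3 were lower in SCC2. The background was 39.2% higher and 30.9% lower in SCC1, and 34.7% and 32.9% in SCC2. With chromosome medians removed, 2 were higher and 1 lower in SCC1, and 0 higher and 1 lower in SCC2. The background was then 29.9% higher and 30.6% lower in SCC1, and 28.8% and 29.6% in SCC2. Npc1, the lysosomal membrane protein that exports cholesterol, had 12.0, 12.6 and 12.6 FPKM in LLC1, 17.7, 16.9 and 17.5 in SCC1 and 11.1, 11.5 and 10.3 in SCC2. Npc2, its soluble partner in the lysosome, had 41.5, 42.1 and 41.0, then 49.1, 49.4 and 49.0, then 36.0, 36.4 and 37.9 FPKM in the same order of lines. For both genes SCC1 was the highest and SCC2 the lowest line, without overlap. Npc1 rose by 0.45 in SCC1 (SE 0.0405, limma adjusted p = 1.30e-06) and fell by 0.17 in SCC2 (adjusted p = 0.00312), and Npc2 rose by 0.24 and fell by 0.17 (adjusted p = 3.10e-06 and 5.60e-05). Stard4, a soluble carrier of sterols and a target of SREBP, was lower in both subclones: 22, 22.9 and 22.2 FPKM in LLC1, 16.9, 16.8 and 17.1 in SCC1 and 18.7, 18.5 and 18.9 in SCC2 (log2 changes -0.38 and -0.25, limma adjusted p = 1.24e-07 and 5.11e-06).

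Abca1 was near the limit of detection. Its fragments numbered 32, 31 and 38 in the LLC1 libraries, 2, 5 and 1 in SCC1 and 0, 1 and 0 in SCC2, equal to 0.18 ± 0.0284 FPKM in LLC1 and 0.0137 ± 0.0108 in SCC1. LLC1 held 101 fragments in all against 8 in SCC1, a ratio per depth of 13.2 (95% interval 6.43 to 31.3, exact binomial, counting error only), and against 1 in SCC2, a ratio of 103 (18.1 to 4120). In a fit with no filter on low values Abca1 was lower in both subclones (limma adjusted p = 1.12e-05 and 8.41e-06), on a scale where the change of so low a gene is compressed (-0.22 and -0.24). SCC1 held 8 fragments against 1 in SCC2, a ratio per depth of 7.85 (95% interval 1.053 to 348.5, counting error only), and the lowest SCC1 library and the highest SCC2 library each held 1 fragment. In the fit with no filter, SCC2 against SCC1 did not pass the test (-0.017, limma adjusted p = 0.481).

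Compared directly, SCC2 had 16 members lower and 4 higher than SCC1. The median log2 change was -0.14, against -0.0029 over all tested genes. The background was 39.4% lower and 37.0% higher, against 59.3% and 14.8% of the members. The 4 genes higher in SCC2 were Hmgcs1, Lss, Sc5d and Stard4 (0.41, 0.43, 0.13 and 0.13). The largest falls from SCC1 to SCC2 were those of Tm7sf2, Acat2 and Npc1 (-0.67, -0.62 and -0.62), followed by Sqle and Ebp (-0.53 and -0.48). For Mvk, Idi1, Lbr, Hsd17b7, Dhcr7, Scap and Insig2 the difference between subclones did not pass the test. That of Mvk passed without SCC1 replicate 1 or SCC2 replicate 1 (limma adjusted p = 0.0386 and 0.00675). It also passed with quantile normalization or median-of-ratios scaling (limma adjusted p = 0.0369 and 0.0491). The difference of Idi1 passed without SCC2 replicate 1 (limma adjusted p = 0.0174) and with chromosome medians removed (-0.33, adjusted p = 2.04e-05).

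Several members lie on chromosomes whose median log2 change was away from 0. Whether all genes of such a chromosome moved, or a part of them, was not tested. The median log2 change of the 405 tested genes of chromosome 13, which holds Hmgcs1 and Idi1, was 0.35 in SCC2 against LLC1. For the 431 of chromosome 15, which holds Sqle and Srebf2, it was 0.16 in SCC1 and -0.26 in SCC2. For the 265 of chromosome 18, which holds Npc1 and Stard4, it was 0.22 and -0.22, and for the 342 of the X chromosome, which holds Ebp and Nsdhl, 0.17 and 0.23. On chromosome 9, which holds Scap and Sc5d, it was -0.19 and -0.16, and on chromosome 10, with Lss, -0.19 and 0.096. It was 0.17 and -0.036 on chromosome 11, with Srebf1, and -0.33 and -0.040 on chromosome 4, with the untested Abca1. Npc2, which also went in opposite directions in the subclones, lies on chromosome 12, where the median was 0.069 and 0.0033.

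**Figure D4:**
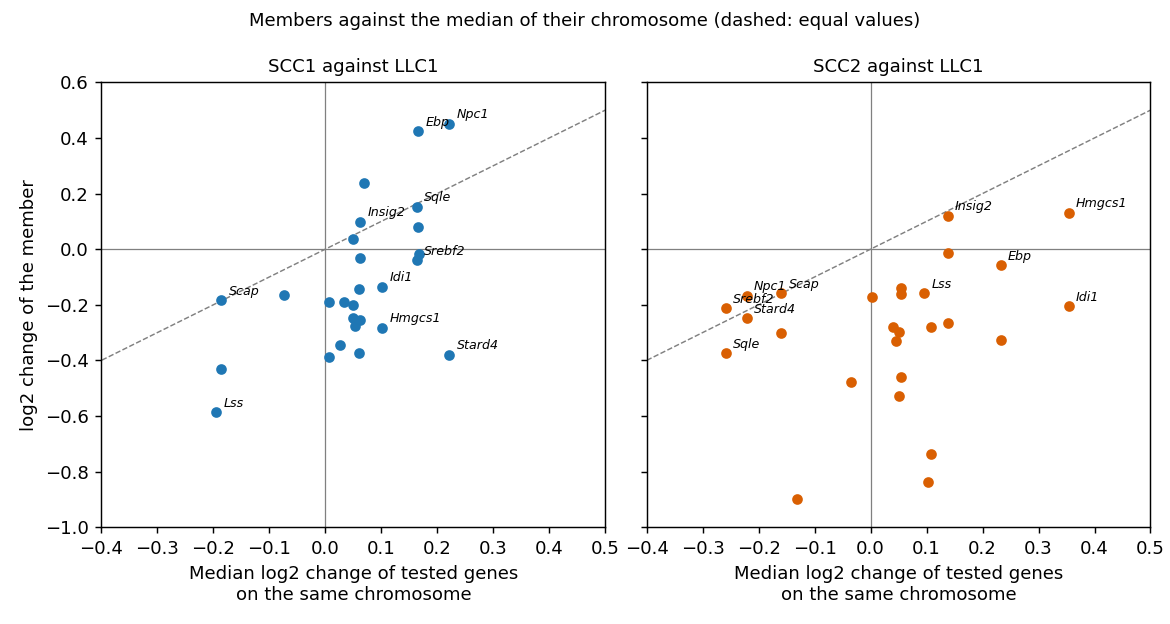
Log2 change of each tested member (y axis) against the median log2 change of all tested genes on its chromosome (x axis), for SCC1 and SCC2 against LLC1, with the dashed line at equal values. Scap lies on the line in both panels, Sqle in SCC1, and Hmgcs1 lies below it in SCC2 at a chromosome median of 0.35.

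With each chromosome's median taken away, 18 members were lower and 3 higher in SCC1, and 22 were lower and 0 higher in SCC2, where 30.6% and 29.9% of all tested genes were lower and higher in SCC1, and 29.6% and 28.8% in SCC2. All 19 synthesis enzymes then passed the test as lower in SCC2, and 14 as lower and 1, Ebp, as higher in SCC1. Hmgcs1 turned from higher to lower in SCC2 (-0.22, limma adjusted p = 1.70e-05), and Sqle in SCC1 went to -0.010 (adjusted p = 0.695). Lbr passed as lower in SCC1 and SCC2 (-0.094 and -0.15, limma adjusted p = 0.00125 and 3.93e-05) and in SCC2 against SCC1 (-0.049, adjusted p = 0.0421). Ebp was lower in SCC2 (-0.29, limma adjusted p = 9.81e-05), and Tm7sf2 was no longer lower in SCC1 (-0.093, adjusted p = 0.101). Scap went to 0.0017 in SCC1 and 0.0021 in SCC2, and Srebf2 went to -0.20 in SCC1 (limma adjusted p = 4.58e-05) and 0.046 in SCC2 (adjusted p = 0.158). Srebf1 was lower in SCC1 as well as SCC2 (-0.18 and -0.44, limma adjusted p = 3.20e-05 and 2.01e-08). Npc1 remained higher in SCC1 (0.23, limma adjusted p = 4.52e-04) and was no longer lower in SCC2 (0.054, adjusted p = 0.271). Stard4 went to -0.60 in SCC1 and -0.027 in SCC2 (limma adjusted p = 3.35e-09 and 0.381). Insig1 (-0.25 and -0.52), Mvd (-0.43 and -0.85) and Lss (-0.39 and -0.26) were still lower in both. The adjusted p-values of this fit take the chromosome medians as known without error.

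Against SCC1, SCC2 then had 17 members lower and 5 higher, with 33.7% of all tested genes in each direction. Srebf2 was among the higher ones (0.27, limma adjusted p = 2.74e-06), having been lower without that step (-0.17, adjusted p = 9.20e-05).

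Other genes of sterol and lipid metabolism, from lists written with earlier results of these data known, were counted in the same fit, where 39.2% of all tested genes were higher and 30.9% lower in SCC1, and 34.7% and 32.9% in SCC2. The median over all tested genes was 0.033 and 0.0075. With chromosome medians removed, 29.9% of all tested genes were higher and 30.6% lower in SCC1, and 28.8% and 29.6% in SCC2. Of 16 lipogenic genes under SREBP control, 10 were lower and 1 higher in SCC1 (62.5% and 6.25%, median log2 change -0.19), and 13 lower and 2 higher in SCC2 (81.2% and 12.5%, median -0.23). With chromosome medians removed, 14 were lower and 1 higher in SCC1, and 12 lower and 1 higher in SCC2. The most abundant of them, the stearoyl-CoA desaturase Scd2, had 577 ± 3.2 FPKM in LLC1, 504 ± 5.31 in SCC1 and 445 ± 6.27 in SCC2. Its relative Scd1 had 138 ± 0.482, 99.2 ± 0.999 and 103 ± 1.99 FPKM, and the desaturase Fads2 67.7 ± 2.04, 49.2 ± 0.646 and 64.0 ± 1.45. All 3 were lower in both subclones, and Fads2 was lower in SCC1 than in SCC2 (limma adjusted p = 8.37e-08). Scd1 was higher in SCC2 than in SCC1 by 0.056 (limma adjusted p = 0.0146), which turned to -0.11 with chromosome medians removed (adjusted p = 2.60e-04).

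The next list holds the machinery that cleaves SREBP or takes part in sterol-dependent degradation at the endoplasmic reticulum. Of its 10 genes, 5 were higher and 4 lower in SCC1 (50% and 40%), and 8 higher and 2 lower in SCC2 (80% and 20%, median 0.16). These counts became 1 higher and 3 lower in SCC1, and 6 higher and 2 lower in SCC2, with chromosome medians removed. Mbtps1, the Golgi protease that makes the first cut in SREBP, had 71.4 ± 0.423 FPKM in LLC1, 56.7 ± 1.17 in SCC1 and 82.1 ± 1.48 in SCC2, so it was lower in SCC1 and higher in SCC2 (log2 changes -0.33 and 0.20, limma adjusted p = 8.97e-08 and 6.77e-06). Pgrmc1, a haem-binding membrane protein that interacts with Insig1 and Scap, was higher in both (0.35 and 0.12). Its rise in SCC2 became a fall with chromosome medians removed (-0.11, limma adjusted p = 0.00253).

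Of 14 genes that use isoprenoids for dolichol, ubiquinone or protein prenylation, 5 were higher and 6 lower in SCC1 (35.7% and 42.9%, near the background), and 7 higher and 3 lower in SCC2 (50% and 21.4%, median 0.12). With chromosome medians removed, 3 were higher and 1 lower in SCC1, and 7 higher and 5 lower in SCC2. The prenyltransferase subunit Fnta was higher in both (0.16 and 0.28), Nus1, of dolichol synthesis, was lower in SCC1 and higher in SCC2 (-0.21 and 0.14), and Rabggtb was higher in SCC2 (0.17) and not detectably changed in SCC1 (-0.011, limma adjusted p = 0.728). Neither change of Nus1 passed with chromosome medians removed (-0.013 and 0.049, limma adjusted p = 0.697 and 0.133). Of 7 tested genes of the sterol-sensing LXR receptors, their partners and targets, 1 was higher and 3 lower in SCC1 (14.3% and 42.9%), and 1 higher and 4 lower in SCC2 (14.3% and 57.1%), which became 1 and 6, then 0 and 3, with chromosome medians removed. The receptor Nr1h2 was lower in SCC1 and higher in SCC2 (limma adjusted p = 0.0158 and 0.0332), at 46.5 ± 1.34, 43.7 ± 1.147 and 48.9 ± 0.836 FPKM. Its partner Rxrb fell in SCC2 (-0.18), and Lpcat3, a phospholipid acyltransferase, fell in SCC2 (-0.36). With chromosome medians removed Rxrb in SCC2 was at -0.045 and Nr1h2 at 0.034 (limma adjusted p = 0.247 and 0.309), while Rxrb and Lpcat3 passed as lower in SCC1 (-0.096 and -0.095, adjusted p = 0.0217 and 0.0186). Abcg1, a further exporter on this list, was at most 0.01 FPKM in each library.

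Of 18 other tested genes of sterol transport and storage, 5 were higher and 8 lower in SCC1 (27.8% and 44.4%), and 7 higher and 7 lower in SCC2 (38.9% each, near the background), which became 6 and 6, then 4 and 7, with chromosome medians removed. Tmem97, a partner of Npc1, had 56.7 ± 1.89 FPKM in LLC1, 75.7 ± 1.12 in SCC1 and 56.9 ± 0.883 in SCC2, so like Npc1 it was highest in SCC1 (log2 change 0.41, limma adjusted p = 6.12e-08). The caveolar protein Cav1 was lower in SCC1 (-0.43) and slightly so in SCC2 (-0.059, limma adjusted p = 0.024), and the endocytic receptor Lrp1 was lower in both (-0.26 and -0.37). Cav1 in SCC2 went to 0.041, with chromosome medians removed, and Lrp1 in SCC1 to -0.063 (limma adjusted p = 0.102 and 0.0567). Of 4 tested oxysterol and bile acid enzymes 1 was higher and 1 lower in SCC1 (25% each), and 0 higher and 2 lower in SCC2 (50% lower). These counts were the same with chromosome medians removed. Cyp39a1 fell in both (-0.66 and -0.30), from low means of 2.60 FPKM in LLC1 to 1.29 in SCC1 and 1.92 in SCC2. Hsd3b7 rose in SCC1 and fell in SCC2 (0.33 and -0.20), where its libraries overlapped those of LLC1 (limma adjusted p = 0.0232). Cyp46a1 changed detectably in neither (limma adjusted p = 0.74 and 0.103).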

How the data were processed

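The authors trimmed reads with Trimmomatic, aligned them with hisat2 and derived the deposited FPKM per gene with cufflinks, per the design text of the series. Builds GRCm38 and mm10 are named in the submitters' processing notes. Not given in the sources used here: tool versions, annotation and strand use. The labels and the design text name different extraction and library kits.

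Whole fragments were worked back from the FPKM: all 12270 genes above 0 in every library came out whole within 0.001 fragments, up to a factor common to a gene. Genes with at least 1 FPKM in at least 3 of 9 libraries (10519) were tested with limma 3.58.1 in R 4.3.3 on log2(FPKM + 1), pseudocount 1, eBayes with trend and robust, all libraries in one fit with the line as the factor, two-sided, Benjamini-Hochberg over all tested genes, threshold 0.05. Log2 changes are on this scale and understate changes of low genes. Scripts were tested on simulated data. Other steps ran in Python 3.11.15 (scipy 1.17.1). Groups came from sample titles.

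The 28 genes and the other lists were chosen with earlier results of these data known. All 28 are reported. From each other list at most 3 tested genes of highest mean FPKM are named, apart from Abcg1 and the marker genes, which were chosen after their values were seen; 1 gene that this rule picks is not reported here. Alternatives were another pseudocount, other filters and scalings, chromosome medians removed, limma without trend, fewer libraries, a replicate block and limma-voom. Exon overlaps came from GENCODE M21 and promoters from RefSeq.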

Additional observations from a re-analysis of the deposited data

Results flagged for a closer look

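In 4 genes the subclones changed in opposite directions from LLC1, and the direct comparison of SCC2 with SCC1 passed the test. Hmgcs1 was lower in SCC1 and higher in SCC2, with a difference of 0.41 (SCC2 minus SCC1, log2 scale). Sqle, Npc1 and Npc2 were higher in SCC1 and lower in SCC2, with differences of -0.53, -0.62 and -0.41. With chromosome medians removed these differences were 0.15 for Hmgcs1, -0.085 for Sqle, -0.16 for Npc1 and -0.40 for Npc2, and passed the test (limma adjusted p = 2.07e-04, 0.00349, 0.00344 and 2.88e-08). Opposite calls against LLC1 were left for Npc2 alone of the 4 under that setting (0.17 in SCC1 and -0.17 in SCC2). Hmgcs1 was then lower in both (-0.38 and -0.22), Sqle passed as lower in SCC2 and did not pass in SCC1 (-0.12 and -0.010), and Npc1 passed as higher in SCC1 and did not pass in SCC2 (0.23 and 0.054).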

How the results depend on the processing

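Of 1296 log2 changes recomputed under alternatives (27 members, 3 comparisons, 16 settings each), 1250 kept their direction and their side of the threshold, 11 lost a call, 19 gained one and 16 changed sign. The 21 of these that arose from removing chromosome medians include most sign changes. Under that setting the number of members higher than LLC1 went from 5 to 3 in SCC1 and from 2 to 0 in SCC2. Signs turned in SCC1 against LLC1 for Sqle (-0.01), Cyp51 (-0.014), Nsdhl (-0.084) and Scap (0.0017), in SCC2 against LLC1 for Hmgcs1 (-0.22), Srebf2 (0.046), Scap (0.0021), Insig2 (-0.017) and Npc1 (0.054), and in SCC2 against SCC1 for Lbr (-0.049), Srebf2 (0.27) and Insig2 (-0.046). By construction this setting takes one value from all genes of a chromosome. For Hsd17b7 in SCC2 against SCC1, a change near 0, the sign turned with median-of-ratios scaling (0.0038), where the cause was not tested, and leaving out 1 library gave -0.022 to 0.0078. For Insig2 in that comparison leaving out 1 library gave -0.003 to 0.042.

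Equal replicate numbers did not pair the libraries: deviations of same-numbered libraries correlated at -0.068 to 0.089 over 9 pairs, and not every library correlated best with its own number. With a replicate block 6 members were higher and 17 lower in SCC1, 2 higher and 22 lower in SCC2, and 4 higher and 16 lower in SCC2 against SCC1. Leaving out 1 library gave 4 to 6 higher and 17 lower in SCC1, 2 higher and 22 to 23 lower in SCC2, and 4 to 5 higher and 16 to 17 lower in SCC2 against SCC1. Depth limits Abca1, which held at most 38 fragments in a library. Tm7sf2 held the fewest of the tested members, 148 to 310 per library. How far depth limits Tm7sf2 and the other tested members was not tested.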
